A study of Mus musculus with 12 samples.

Results

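Ribosome footprints were set against RNA in the testes of Mael-/- mice, in 6 of the 12 libraries of the series. These 6 libraries, 3 of footprints and 3 of RNA, were chosen by their genotype label. Each footprint library was paired with the RNA library of the same number, because both came from aliquots of 1 testis extract. The measurement covers 13976 of 20620 genes and 1105 of 1554 repeat subfamilies, those with enough counts to be tested. All mice were C57BL/6 at postnatal day 16. The Mael-/- mice lack both copies of Mael, the gene of Maelstrom, a protein needed to make piRNAs, and the remaining 6 libraries came from Mael+/- testes, which keep a copy. Testes of both genotypes were collected in 200 µg/ml cycloheximide, which holds elongating ribosomes on the mRNA. Extracts were made from whole testis, so each library mixes germ cells with Sertoli, Leydig and other somatic cells, and the labels do not say whether animals were pooled.

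In ribosome profiling a nuclease removes RNA that no ribosome covers, and the fragments that survive show how many ribosomes sat on each coding sequence. Dividing footprints by RNA separates how heavily an mRNA is loaded from how abundant it is. Male germ cells are known for mRNAs that are stored and loaded later, under RNA-binding proteins such as Dazl. Upstream AUGs in a leader can catch scanning ribosomes before they reach the main reading frame. L1 retrotransposons are transposons of germ cells whose RNA is translated into ORF1p, which coats the RNA, and ORF2p, an endonuclease and reverse transcriptase, and the piRNA pathway represses them.

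Gene counts summed to between 13697267 and 27462358 in the 3 RNA libraries and to between 8401342 and 13233565 in the 3 footprint libraries. Repeats took 8.72 to 10.2% of all RNA counts and 12.4 to 13.6% of all footprint counts. Mael itself had 1, 2 and 0 RNA counts and 0, 0 and 7 footprint counts in the Mael-/- extracts, against 3800 to 5045 RNA counts and 660 to 1294 footprint counts in Mael+/- extracts, so it was too low to be tested. Markers of somatic and germ cells were both present. Clu, a secreted glycoprotein of Sertoli cells, had 69218, 89822 and 138514 RNA counts, and Ddx4, a helicase of germ cells, had 2311, 3503 and 4204. Pgk2, which marks later spermatocytes and spermatids, had at most 3 counts in any Mael-/- library. A ratio from whole testis is a mean over the cells that express the gene, and fewer cells of a type cannot be told apart from less RNA per cell.

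The ratio is given throughout on the log2 scale, as footprints per base of coding sequence against RNA per base of mRNA, with the median gene at 0. A gene was called higher or lower at a Benjamini-Hochberg adjusted p under 0.05 in edgeR's quasi-likelihood test with a ratio past 1 in size, that is, 2-fold from the median gene. Of 13976 genes tested, 1725 were higher (12.3%) and 1007 were lower (7.21%). The 3 extracts gave nearly the same ratio for a gene, with a median SD of 0.15, and across uniquely mappable genes the ranks of extracts correlated at a Spearman rho of 0.870 to 0.886. The spread between genes was wider. Among the 11427 genes with unique sequence, defined below, the SD across genes was 0.79 and the middle 9 in 10 lay between -0.88 and 1.56. Of these genes 1437 were higher (12.6%) and 374 were lower (3.27%).

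Whether a gene's ratio is high or low depends in part on how length is counted, because the authors counted footprints over coding sequence and RNA over the whole mRNA. Without any length term, 1132 genes were called higher and 1540 lower, and 42.4% of the calls were higher, against 63.1% with lengths. On both scales together, 604 uniquely mappable genes were higher and 152 were lower. The value without lengths is therefore given below beside each gene whose call depended on it.

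Among genes with at least 100 RNA and 20 footprint counts per library on average, the lowest ratios were found in genes whose coding sequence is repeated elsewhere in the genome. The lowest genes included Rpl13, Rpl11, Eif4a1, Rpl24, Rps4x, Hmgn2, Rpl27 and Rpl7a, with ratios from -7.27 to -4.90. All but Eif4a1, an RNA helicase of initiation, and Hmgn2, a nucleosome-binding protein, encode ribosomal proteins. Uniqueness was measured by cutting each coding sequence into overlapping words of 30 bases, about the length of a footprint, and asking whether each word occurs at a single place in the GRCm38 genome. In these 8 genes between 0 and 3.89% of words did. A word from each of 3 coding sequences is shown here, read on the strand of the gene, with the number of places where it occurs in the genome:
Rpl13, chr8:123103240-123103269 (+), 8 places: aggcgaaacaagtccacggagtcactgcag
Eif4a1, chr11:69668644-69668673 (-), 2 places: atattccagaagctcaacagcaacacacag
Atf4, chr15:80256921-80256950 (+), 1 place: tccactccagagcattcctttagtttagag
Positions are those of GRCm38 (mm10), and the words were read from the RefSeq copy of that genome.

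Rpl13, a protein of the large ribosomal subunit, showed how such a gene looks in the counts. Its RNA gave 3702, 6111 and 8666 counts, and its footprints 40, 29 and 17. The ratio was -6.97, -7.20 and -7.76 in the 3 extracts (fitted -7.27, SE 0.12, edgeR adjusted p 2.3e-24). Eif4a1 behaved alike, with 7927, 12796 and 18790 RNA counts and 133, 77 and 62 footprint counts.

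Across all genes the ratio followed the share of unique words. The median was -7.12 in the 64 genes with up to 1% of words at a single place, -2.74 in 142 genes with 1 to 10%, -1.32 in 216 genes with 10 to 25% and -0.92 in 320 genes with 25 to 50%. It was -0.04 in 579 genes with 75 to 90% and 0.05 in 12161 genes above 90%. Genes called uniquely mappable had at least 90% of their 30-base coding words and of their 75-base mRNA words at a single place, and under 10% of their mRNA in exons of other genes. Among the 2549 genes that missed these limits, 24.8% were lower, against 3.27% of the uniquely mappable ones. How the authors' counting treated reads that match several places is not given in the sources used here.

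**Figure D1:**
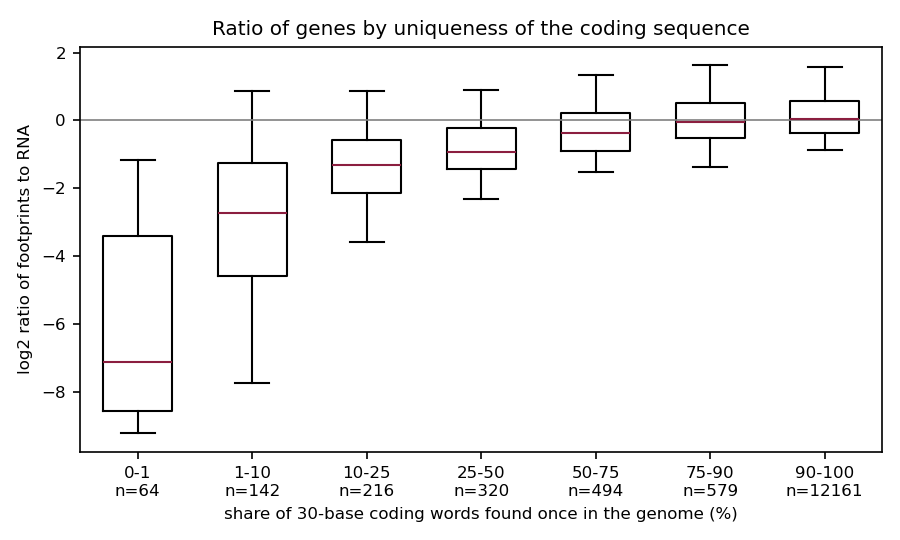
Log2 ratio of footprints to RNA in Mael-/- testes (vertical axis, median gene at 0) by the share of a gene's 30-base coding words that occur at a single place in the genome (horizontal axis, percent). Boxes run from the 25th to the 75th percentile, red lines are medians and whiskers reach the 5th and 95th percentiles. The median falls from 0.05 in the most unique bin to -7.12 in the least unique.

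Of the 83 cytosolic ribosomal protein genes tested, 71 were lower and 3 higher, with a median of -4.27. Over all genes 7.21% were lower and 12.3% higher. Only 2 of the 83 were uniquely mappable. When lengths were counted over unique positions alone, 16 of the genes kept enough positions to be tested. Their median was -0.47, with 4 lower and 1 higher, against 639 lower and 1713 higher of 13673 genes tested that way. A list of further translation factor and translation-related mRNAs had 20 members tested, which had a median of -0.83 with 8 lower and 1 higher, and over unique positions 18 members had a median of -0.30 with 1 lower and 1 higher. Eef1a1, the factor that brings tRNAs to the ribosome, had a ratio of -2.99 (SE 0.09) with 11.1% unique words, and -0.98 over unique positions, which is no longer a call. Eef2, the translocation factor, had 71.7% unique words and a ratio of -0.89.

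At the other end, under the same count limits, 9 of the 10 highest genes were uniquely mappable, and several encode regulators of chromatin and transcription. They were Gatad2b, a subunit of the NuRD complex, Setd1b and Kmt2d, methyltransferases of histone H3 lysine 4, Kdm6b, a demethylase of histone H3 lysine 27, Atf7, Prr12, Hnrnpd, an RNA-binding protein, Atp1b2, a sodium pump subunit, and the X-linked homeobox genes Esx1 and Rhox8. Their ratios ran from 3.79 to 4.33, and without lengths from 2.51 to 4.63, so that each remained a call on both scales. Rhox8 missed the uniqueness limit, with 66.7% of words at a single place. Upstream AUGs occur in these high genes too. Setd1b, Esx1, Atf7 and Kdm6b have 3 each, Kmt2d has 2, and Prr12 and Rhox8 have 1 each. Gatad2b, Hnrnpd and Atp1b2 have 0.

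Gatad2b (chr3:90293181-90363403) had 386, 437 and 523 RNA counts and 2608, 1816 and 1607 footprint counts. In CPM per kb (counts scaled to equal gene totals, for RNA per kb of mRNA and for footprints per kb of coding sequence), its RNA level was 3.76, 2.90 and 2.56 and its footprint level 111, 102 and 107. The ratio was 4.07, 4.32 and 4.58 (fitted 4.33, SE 0.09, edgeR adjusted p 1.5e-22). Kmt2d showed the same over a far longer coding sequence of 16767 bases, with 1248, 1418 and 2062 RNA counts against 21927, 18433 and 15287 footprint counts and a fitted ratio of 3.93 (SE 0.10). Esx1, expressed in germ cells and placenta, had RNA levels of 5.15, 4.94 and 5.30 and footprint levels of 150, 156 and 139. In all 3 genes the RNA level was low and every extract lay far above the 2-fold line.

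Some regulators of Sertoli and germ cells, picked from the lists below for their values, were also high, though the lists as a whole held few such members. Sox9, the transcription factor that sets Sertoli identity, had RNA levels of 16.4, 12.1 and 11.99 and footprint levels of 228, 223 and 203 CPM per kb, and a ratio of 3.22 (SE 0.09). Amh, the hormone of immature Sertoli cells, was at 1.22 (SE 0.08), and its RNA level of 30.1 in extract 1 was below the 44.6 and 44.1 of extracts 2 and 3. Msi1, an RNA-binding protein of stem cells and Sertoli cells, was at 2.69 and Zfp703, a transcriptional repressor, at 3.61. Dazl, which promotes translation in germ cells, had RNA levels of 214, 229 and 184 against footprint levels of 985, 970 and 924, and a ratio of 1.399 (SE 0.08). Without lengths Dazl was at 0.58, which is not a call, while Sox9 (2.68), Amh (2.09), Msi1 (2.11) and Zfp703 (3.69) stayed calls.

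**Figure D2:**
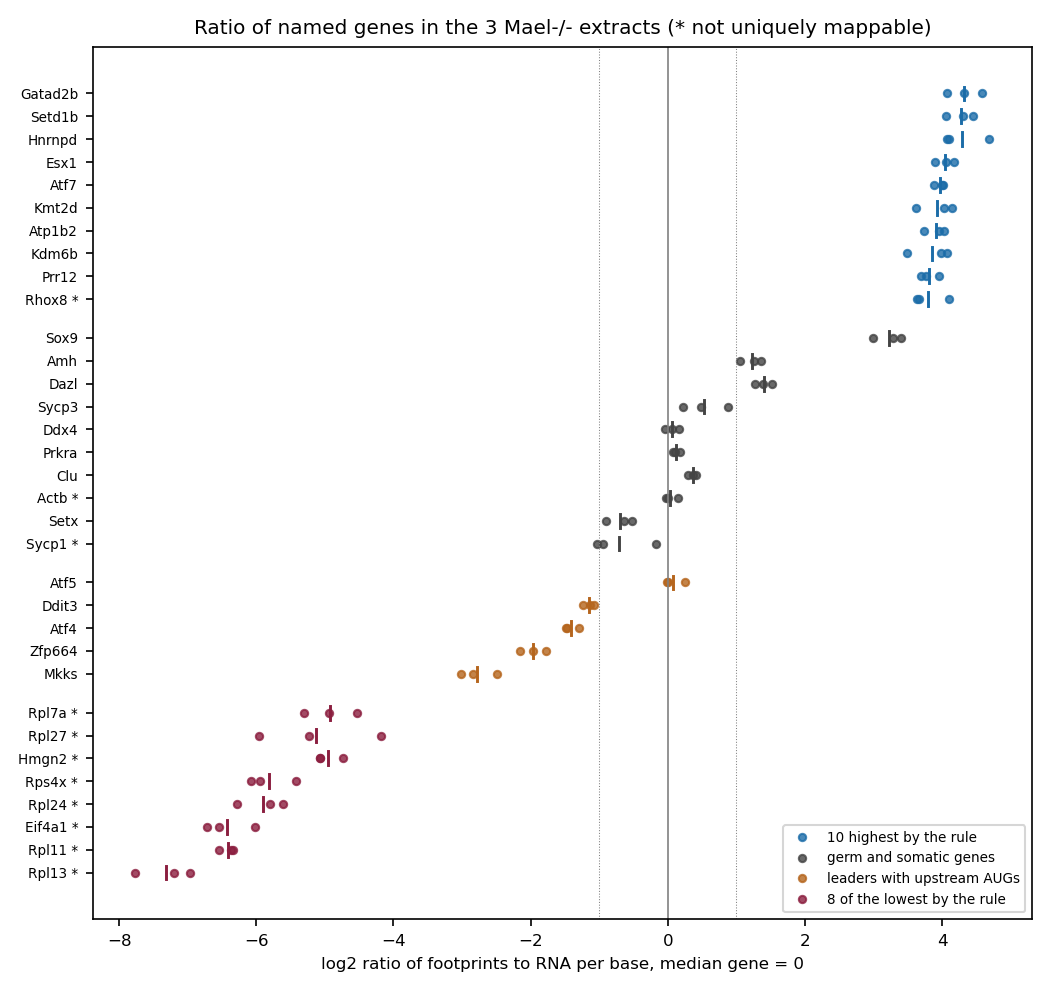
Log2 ratio of footprints to RNA per base in the 3 Mael-/- extracts (points) and their mean (bars) for 33 named genes, grouped by colour, with the median gene at 0 and dotted lines at 2-fold. The 10 highest genes lie at 3.49 or above in every extract, the 8 low genes at the bottom at -4.19 or below, and an asterisk marks genes that are not uniquely mappable.

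Low ratios were less frequent among uniquely mappable genes (3.27%). Some belonged to mRNAs with upstream AUGs and others to mRNAs without any. The genes of this paragraph other than Atf4, Atf5, Ddit3, Ppp1r15a, Ppp1r15b and Slc7a1 were chosen after their values were seen. Mkks, a chaperonin-like protein of the cilium base (chr2:136873780-136891406), has 18 AUGs in the leader of its RefSeq mRNA. Its RNA gave 578, 911 and 1180 counts and its footprints 64, 75 and 47, for ratios of -3.02, -2.49 and -2.84 (fitted -2.78, SE 0.12, adjusted p 1.1e-16), and -2.78 without lengths. Zfp664, a zinc finger protein (chr5:124862705-124888630), has 11 upstream AUGs and had 1310, 1785 and 2135 RNA counts against 95, 87 and 56 footprint counts, a ratio of -1.98 (SE 0.10). Naca, a chaperone of nascent chains, was at -2.80, but its length here is that of a long muscle form of 6564 coding bases. The leader of Naca has 2 upstream AUGs. Macrod2, an ADP-ribose hydrolase, was at -2.60 and Bag1, a co-chaperone, at -1.82, with 0 and 1 upstream AUGs. Magi2 (-2.16), 2700089E24Rik (-2.07) and R3hcc1 (-2.06) were also low, with 0 upstream AUGs. Magea4, whose RefSeq mRNA has no leader, was at -1.86 (-0.96 without lengths), and Zfp184, with 1 upstream AUG, at -1.92. Of 9391 uniquely mappable genes with at least 100 RNA counts per library, 4778 had 0 upstream AUGs.

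Atf4, the transcription factor of the integrated stress response, is the textbook case of a reading frame held back by upstream AUGs. Its RNA level was 86.02, 85.3 and 106 and its footprint level over the main coding sequence 53.7, 60.8 and 67.1 CPM per kb. The ratio was -1.49, -1.29 and -1.47 (fitted -1.42, SE 0.07, adjusted p 1.4e-14), below the median gene in every extract. Ddit3, its target gene that encodes CHOP, had a ratio of -1.24, -1.13 and -1.07 (fitted -1.15, SE 0.10). Both stayed calls without lengths, at -1.23 and -1.03. The start codons of these leaders are shown with 9 bases before and 9 after, the AUG in capitals as ATG, beside that of Prkra, whose leader has no upstream AUG and whose ratio was 0.12 (SE 0.07), near the median gene:
Atf4 upstream 1, chr15:80255294-80255314 (+), 36 codons: ttttctctcATGgggccttta
Atf4 upstream 2, chr15:80255573-80255593 (+), 3 codons: gcggccaccATGgcgtattag
Atf4 upstream 3, chr15:80255672-80256213 (+) across an intron, 59 codons: gcctaagccATGgcgctcttc
Atf4 main, chr15:80256290-80256310 (+): ccccacaacATGaccgagatg
Ddit3 upstream 1, chr10:127290820-127290840 (+), 34 codons: gattatatcATGttgaagatg
Ddit3 main, chr10:127295332-127295352 (+): cgtgcagtcATGgcagctgag
Mkks main, chr2:136881224-136881244 (-): tgaagcaggATGtctcggtta
Zfp664 main, chr5:124885535-124885555 (+): ggaaaaaaaATGatctacaag
Prkra main, chr2:76647845-76647865 (-): cttctcgccATGtcccatagc
Codons are counted from each upstream AUG to its stop, positions are GRCm38 (mm10), and sequences are from RefSeq. The longest Atf4 frame, upstream 3, runs past the main start in another frame. The upstream frames of Mkks held 1 to 59 codons and those of Zfp664 held 2 to 38. Their upstream AUGs are not shown, nor is the second of the 2 upstream AUGs of Ddit3, with 31 codons.

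The list of stress mRNAs with upstream reading frames had 15 members tested, of which 5 were lower and 1 higher, with a median of -0.62, against 7.21% lower and a median of 0.00 over all genes. Among its 13 uniquely mappable members 3 were lower and 1 higher, with a median of -0.23. Ppp1r15a, which directs a phosphatase to the initiation factor eIF2, was at -1.51 (SE 0.08) and at -0.85 without lengths, with 80.5% unique words. Its relative Ppp1r15b had 3 upstream AUGs and a ratio of 0.05. Atf5, a relative of Atf4 with 6 upstream AUGs, was at 0.08 (SE 0.09), with the extracts at 0.25, -0.01 and 0.00. Slc7a1, an arginine transporter, was at 1.47 and at 0.44 without lengths. Ifrd1, a transcriptional coregulator with a short upstream frame, was at -1.05, at -0.98 without extract 1 and at -0.57 without lengths.

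Over 9391 uniquely mappable genes with at least 100 RNA counts per library, genes with more upstream AUGs had slightly lower medians. The median was 0.06 in 4778 genes without an upstream AUG and -0.02 in 683 genes with 5 or more (0.12 and -0.19 without lengths), and the share called lower was 1.93% and 6.44%. Within each quartile of leader length, genes with an upstream AUG had the lower median: -0.15 against -0.05 in the shortest leaders and 0.05 against 0.35 in the longest. Without lengths the order was the same in all 4 quartiles, from -0.01 against 0.11 in the shortest to -0.13 against 0.06 in the longest. A purine 3 bases before the start codon, which favours initiation, went with a median of 0.05 in 8070 genes, against -0.04 in 1293 genes with a pyrimidine there.

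Among the mRNA features measured, the length of the 3' UTR had the strongest relation to the ratio with lengths and coding length the strongest without, and both changed sign with the length term. Across the 9391 genes Spearman's rho was 0.45 with lengths and -0.26 without. With lengths the median rose over quartiles of 3' UTR length, at -0.28, -0.11, 0.09 and 0.51, and without lengths it went down from 0.24 to -0.23. Coding length gave -0.14 with lengths and 0.34 without. The ratio with lengths itself contains coding length and mRNA length, which includes the 3' UTR. Without lengths, RNA counts take in the 3' UTR and footprint counts do not. Part of each of these relations is thus built into the ratio, and how large a part was not tested. GC content of the coding sequence gave 0.02 and 0.05, and of the codons whose frequency was compared, AGG, for arginine, gave the largest value with lengths, -0.12. Genes are not independent replicates, so these values describe this set of mRNAs.

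Meiotic genes sat close to the median gene. Of 24 genes of the synaptonemal complex and recombination tested, 1 was higher and 2 were lower, with a median of -0.20 (0.38 without lengths). Over all genes the shares were 12.3% higher and 7.21% lower. Mei4, needed for meiotic DNA breaks, was at 1.70 (SE 0.14; 0.56 without lengths), and Syce1, of the central element, at -1.09 (SE 0.08; -0.74 without lengths). Sycp3, of the lateral element, had footprint levels of 377, 380 and 377 and RNA levels of 154, 186 and 117 CPM per kb, a ratio of 0.48, 0.22 and 0.88 (fitted 0.53). Sycp1, of the transverse filaments, had RNA levels of 88.0, 86.4 and 49.7 and footprint levels of 80.3, 73.7 and 77.1, a ratio of -0.94, -1.03 and -0.17 (fitted -0.72, 85.0% unique words). For both, RNA was lowest in extract 3 while footprints hardly moved, so that extract 3 held the highest ratio.

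The piRNA pathway, of which Maelstrom is a part, had 21 members tested, with a median of -0.14 (0.37 without lengths). In it 1 was higher and 0 were lower, against 12.3% and 7.21% over all genes. The higher member was Tdrkh, a Tudor protein that binds PIWI proteins on mitochondria, at 1.64 (SE 0.08; 1.35 without lengths). Tdrd7, a Tudor protein of the chromatoid body, was lowest at -0.83 (SE 0.07). Ddx4 was at 0.06 (SE 0.07), with the extracts at 0.06, -0.03 and 0.16, and Piwil1, the PIWI protein of pachytene cells, at 0.23 (SE 0.13) on 111, 163 and 187 RNA counts. Both were within the spread of the median gene.

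Germ cell RNA-binding regulators, 15 tested, had 2 higher (Msi1 and Dazl) and a median of 0.33. A list of 16 genes held proteins that the study names as ORF1p interactors or in L1 bodies, the cytoplasmic bodies of Mael-/- spermatocytes. By staining, the study shows DDX6, CNOT7, CNOT1 and PRKRA in these bodies, and DCP1A weakly. The list had 4 higher and 1 lower, with a median of 0.35. Over all genes 12.3% were higher and 7.21% lower. Its 10 uniquely mappable members had 3 higher and a median of 0.48 (0.21 without lengths). This list came from the study of these testes and is not independent of them. Elavl1, which stabilises mRNAs, gave 2.29, 2.27 and 2.27 in the 3 extracts (fitted 2.28, SE 0.07), but 0.56 without lengths, its mRNA being 6030 bases long with 981 coding bases. G3bp2, a stress granule protein, was at 1.17 and at 0.48 without lengths. The lower member was Ybx1, an mRNA-packaging protein, at -1.29, whose coding sequence has 32.9% unique words and whose ratio over unique positions was 0.053.

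Of 8 marker lists of cell types, those of Sertoli, Leydig, peritubular, macrophage, spermatogonia and pachytene cells had medians above the median gene. Their calls stand beside 12.3% higher and 7.21% lower over all genes, and the lists are short. Sertoli markers, 15 tested, had 3 higher and a median of 0.38 (0.55 without lengths). Leydig markers, 8 tested, had 3 higher and a median of 0.59. Insl3, the peptide hormone of Leydig cells, was at 4.91 but shares exons with another gene, and Star, which carries cholesterol into mitochondria, was at 1.18 (SE 0.08) and at -0.15 without lengths. Spermatogonia markers, 13 tested, had 2 higher and a median of 0.44 (0.15 over uniquely mappable members and 0.07 over all without lengths), and pachytene markers, of which 9 of 13 were tested, had 1 higher (Meig1, a spermiogenesis protein, 1.83) and a median of 0.15 (0.58 without lengths). Peritubular markers, 5 tested, had 1 higher (Tagln, an actin-binding protein, 1.02, but 0.89 without extract 1 and 0.53 without lengths) and a median of 0.98. Of 7 macrophage and 3 endothelial markers none passed, with medians of 0.17 and -0.08, and the red cell list kept 1 of 5 genes, Alas2, a haem synthesis enzyme, at -1.68 (-0.94 without lengths, not a call). Of 18 spermatid mRNAs 4 were tested, with 0 called and a median of -0.31.

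The RNA of Star differed between extracts while its ratio held. It had RNA levels of 9.02, 21.8 and 32.6 CPM per kb and footprint levels of 35.6, 92.7 and 121. Its ratio stayed at 1.17, 1.28 and 1.09. RNA and footprints of this gene thus moved together across extracts, and its levels were lowest in extract 1 and highest in extract 3.

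**Figure D3:**
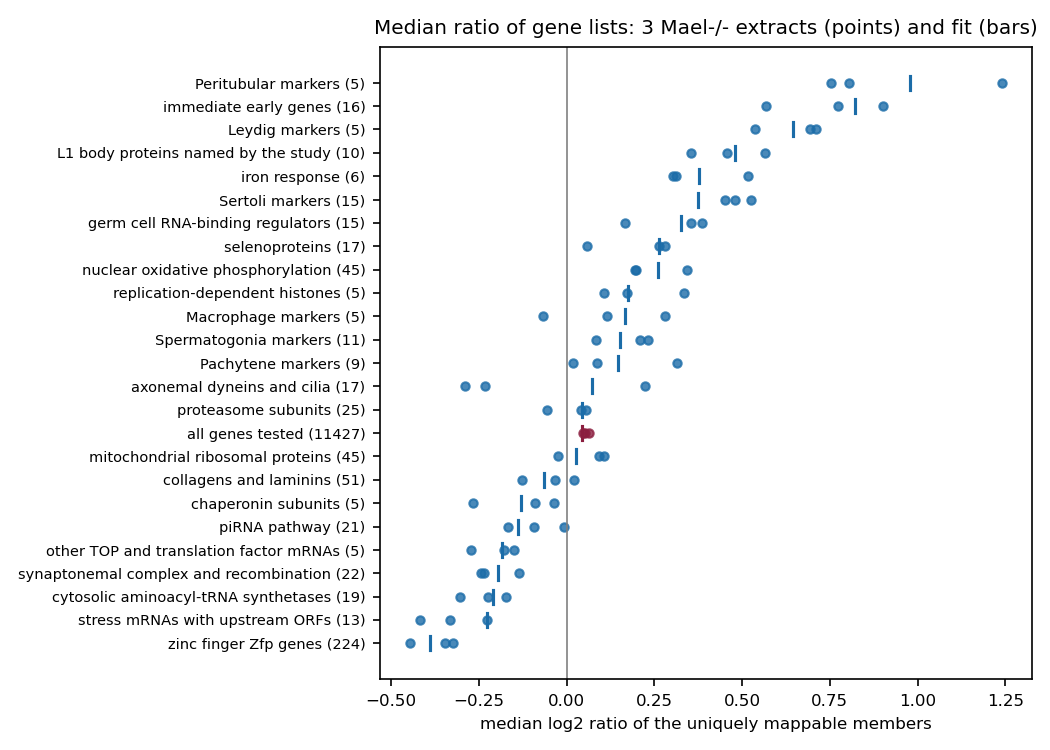
Median log2 ratio of footprints to RNA (horizontal axis, median gene at 0) of the uniquely mappable members of each list with at least 5 of them, by extract (points) and fitted over 3 extracts (bars), with the number of such members in parentheses; all genes are in red. Peritubular markers (0.98) and immediate early genes (0.82) lie highest and zinc finger Zfp genes (-0.39) lowest.

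Zinc finger genes of the Zfp series, most of which encode DNA-binding repressors, formed the largest list with a low median. Of 298 tested, 84 were lower and 18 higher, with a median of -0.45 (-0.54 without lengths), against 7.21% lower over all genes. Among the 224 uniquely mappable members 46 were lower and 15 higher, against 3.27% lower and 12.6% higher over all uniquely mappable genes, with a median of -0.39, and the 3 extracts gave -0.45, -0.32 and -0.35. The members ranged as far as Zfp703 at 3.61. Immediate early genes, which respond within minutes to stimuli, had 16 members tested with 4 higher and a median of 0.82, but 0.12 without lengths. Jun was at 1.04 (SE 0.07), at 0.99 among uniquely mappable genes alone and at 0.28 without lengths. Egr2 was at -0.56 (SE 0.18).

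Genes of metabolism and of large complexes gave medians within 0.20 of the median gene with lengths. The share called over all genes was 12.3% higher and 7.21% lower. Nuclear genes of oxidative phosphorylation, 81 tested, had 13 higher and 11 lower with a median of 0.03, and their 45 uniquely mappable members had 8 higher, 0 lower and a median of 0.26. Uqcrq, of complex III, was at 2.15 and at 0.44 without lengths. Mitochondrial ribosomal proteins, 76 tested, had 14 higher and 7 lower with a median of -0.03. Mrpl17 was at 3.06 (0.30 without lengths, its mRNA having 6712 bases for 531 coding bases) and Mrpl2 at -1.10 (-0.34 without lengths). Proteasome subunits, 38 tested, had 0 higher and 5 lower with a median of -0.13, and none of 25 uniquely mappable members was called, with a median of 0.04. The 8 chaperonin subunits and 20 aminoacyl-tRNA synthetases had 0 called, with medians of -0.08 and -0.20. Without lengths the medians of the proteasome, chaperonin and synthetase lists were 0.33, 0.37 and 0.33.

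The remaining lists mixed directions, beside 12.3% higher and 7.21% lower over all genes. Collagens and laminins, 51 tested, had 2 higher and 1 lower with a median of -0.06 (0.50 without lengths), from Col1a1, of fibrillar collagen, at 1.69 to Col28a1 at -1.24 (-0.64 without lengths). Selenoproteins, 21 tested, had 5 higher and 1 lower with a median of 0.26, the lower being Gpx4, a lipid peroxidase, at -1.86. Iron response mRNAs, 9 tested, had 2 higher and 1 lower with a median of 0.01. They ran from Epas1, a hypoxia factor, at 1.80 to Ftl1, the ferritin light chain, at -3.32 with 11.5% unique words. Polyamine genes, 10 tested, had 1 higher and 3 lower with a median of -0.57, and Odc1, the first enzyme of the pathway, was at -2.93 and at -1.06 over unique positions. Histones of S phase, 58 tested, had 3 higher and 11 lower with a median of -0.46, of which 5 were uniquely mappable with a median of 0.18. Cilium and axoneme genes, 19 tested, had 1 higher and 2 lower with a median of -0.02, and no mitochondrially encoded gene is in the table (0 of the list).

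Among repeats, L1Md and most IAP subfamilies had fewer footprints for their RNA than the median gene, and tRNAs and most snRNAs had many more. Each subfamily was tested on its summed copies, with the library sizes and the median gene of the gene fit and no length term. Of 1105 subfamilies 145 were higher (13.1%) and 207 were lower (18.7%), with a median of -0.33. The zero of this scale is footprints and RNA per base in genes. If it is set by genes without lengths instead, 0.91 is added to every subfamily, and 317 were called higher and 47 lower, so that 87.1% of the calls were higher in place of 41.2%. Whether repeats were counted over whole copies in both assays is not stated, and the table has no positions, so the coding parts of a copy could not be set apart. Nor could the share of unique words in a repeat be measured. Genes with few unique words had low ratios, with a median of -2.74 at 1 to 10%. Whether the same bears on the low ratios of repeats was not tested.

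All 6 tested subfamilies of L1Md were lower, against 18.7% over all subfamilies, with ratios from -1.08 to -2.05 and a median of -1.45. L1Md is the mouse L1 group that holds the young L1Md_A and L1Md_T and older members such as L1Md_F2. L1Md_T gave 7161, 9505 and 8404 RNA counts and 2937, 2562 and 1342 footprint counts. Its ratio was -2.04, -1.69 and -1.75 (fitted -1.83, SE 0.20, edgeR adjusted p 1.1e-18). L1Md_A, which gave 4082, 4642 and 4952 RNA counts and 1337, 1086 and 721 footprint counts, was at -2.36, -1.89 and -1.88 (fitted -2.05, SE 0.20). Every extract lay at -1.69 or below in both subfamilies, and extract 1 was the lowest. With the zero set by genes without lengths, L1Md_A remained a call at -1.14 and L1Md_T did not, at -0.92.

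The signal of L1Md_T was spread over many copies. Of its 23639 copies in the table, 4996 had an RNA count and 2330 a footprint count, and the 10 copies with the most footprints held 15.5% of them. The other L1Md members were L1Md_Gf at -1.44 (SE 0.19), L1Md_F2 at -1.45 (SE 0.20), L1Md_F3 at -1.38 (SE 0.19) and L1Md_F at -1.08 (SE 0.19). L1Md_F was not a call without extract 1, at -0.90, and none of these 4 was with the zero set without lengths (-0.54 to -0.18). L1_Mm was at -1.504, and at -0.60, not a call, with the zero set without lengths. Calls in the older groups stand beside 18.7% lower and 13.1% higher over all repeat subfamilies. Of 21 Lx subfamilies 1 was lower, with a median of -0.33. Of 78 L1M subfamilies 5 were lower and 2 higher, with a median of -0.55. With the zero set without lengths these medians were 0.58 and 0.35, against -0.54 for L1Md. Lx8, chosen after its values were seen, had 3652, 4063 and 5528 RNA counts and 4191, 3186 and 2487 footprint counts, and a ratio of -0.32 (SE 0.19).

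**Figure D4:**
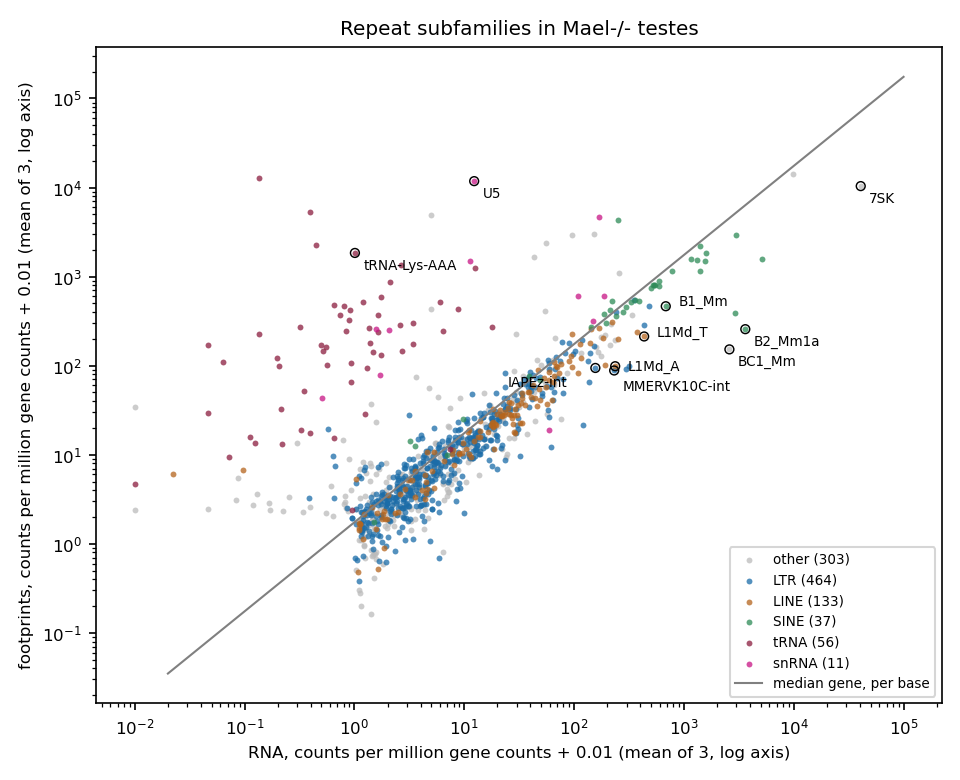
Footprints (vertical axis) against RNA (horizontal axis) of repeat subfamilies with a mean of at least 20 counts in either assay, as CPM, means of the 3 Mael-/- extracts on log axes, coloured by class. The line marks the ratio of the median gene per base; L1Md_T, L1Md_A and MMERVK10C-int lie below it and tRNAs and U5 far above.

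Endogenous retroviruses of the ERVK family gave 65 lower and 5 higher of 250 tested, with a median of -0.54. Over all repeat subfamilies 18.7% were lower and 13.1% higher. IAP elements, whose active copies still insert in mice, had 16 lower of 23 and a median of -1.39. With the zero set by genes without lengths these medians were 0.36 and -0.49. IAPEz-int, their internal part with the gag and pol genes, gave 2452, 2828 and 4072 RNA counts and 1150, 1002 and 802 footprint counts, a ratio of -1.53 (SE 0.19). MMERVK10C-int was lower still, at -2.43, -2.07 and -2.05 (fitted -2.19, SE 0.20), and stayed a call with the zero set without lengths (-1.28). IAPEY4_I-int (-3.27) and ETnERV3-int (-3.11) were the lowest of the family by the naming rule, and in both the 10 leading copies held 76.4% and 81.4% of the footprints. MERVL-int, of the ERVL family, was at -1.49, ETnERV-int at -1.14 and IAPLTR1_Mm at -1.06, the last not a call without extract 3 (-0.91). RLTR10D, a long terminal repeat, was at -0.57 and not a call. With the zero set without lengths, IAPEz-int (-0.62), MERVL-int (-0.58), ETnERV-int (-0.24) and IAPLTR1_Mm (-0.15) were not calls, and RLTR10D was at 0.33. IAPEY4_I-int and ETnERV3-int were then at -2.36 and -2.21.

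SINEs, short elements that encode no protein, had 5 lower and 3 higher of 37 subfamilies, with a median of -0.22. The shares over all repeat subfamilies were 18.7% lower and 13.1% higher. Of 16 B1 subfamilies 2 were lower and 1 higher, with a median of -0.22. Of 5 B2 subfamilies 3 were lower, with a median of -2.53. B2_Mm1a gave 53152, 72546 and 92370 RNA counts and 3179, 2661 and 2217 footprint counts, a ratio of -4.62 (SE 0.25), and B2_Mm1t was at -3.71 and B2_Mm2 at -2.53. B1_Mm was at -1.36 (SE 0.20), and at -0.46, not a call, with the zero set without lengths. BC1_Mm, the subfamily of the BC1 noncoding RNA, was lowest of all at -4.90 (SE 0.25), with 36738, 53691 and 66615 RNA counts against 1697, 1592 and 1422 footprint counts, and 97.8% of its RNA lay in 10 copies. The noncoding 7SK (-2.79) and 7SLRNA (-2.44) RNAs, chosen after their values were seen, were also lower.

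tRNAs and most snRNAs were at the other extreme. These RNAs encode no protein, so their values are counts in the footprint libraries and not a measure of ribosome loading. How their fragments came into those libraries was not tested. Of 57 tRNA subfamilies tested 55 were higher, with a median of 6.67, and of 11 snRNA subfamilies 8 were higher and 1 lower. Among all 1105 subfamilies 13.1% were higher and 18.7% lower. tRNA-Lys-AAA gave 14, 14 and 35 RNA counts and 23651, 18740 and 15639 footprint counts, a ratio of 10.03 (SE 0.32). U5, an RNA of the spliceosome, was at 9.26 (SE 0.33), with extract 3 at 11.27 and the others at 8.45 and 8.35. SSU-rRNA_Hsa, a ribosomal RNA fragment, was at 9.17, tRNA-Asp-GAY at 8.17 and tRNA-Val-GTY at 8.04. tRNAs took 21.9 to 25.8% of all repeat footprints and 0.0956 to 0.110% of repeat RNA counts, while LINEs took 3.67 to 4.15% and 4.76 to 5.95%.

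The ratio in Mael-/- testes was then compared with that in Mael+/- testes by the interaction of assay and genotype over all 12 libraries. Of 14374 genes tested, edgeR called 0 (0%) at an adjusted p under 0.05, with 319 genes (2.22%) at an unadjusted p under 0.05, and DESeq2 called 0, with 95. The median SE of the interaction was 0.13. Across uniquely mappable genes the mean ratios of the genotypes had a Spearman rho of 0.952 and a median difference of 0.08 in size, and 59 genes differed by over 1. Atf4 was at -1.39 ± 0.18 (SD, n = 3) in Mael+/- and differed by -0.03 (SE 0.11). Gatad2b was at 4.14 ± 0.15 and differed by 0.18 (SE 0.12), and Dazl at 1.51 ± 0.14 and differed by -0.12 (SE 0.11). Prkra was at 0.18 ± 0.10 and differed by -0.07 (SE 0.10). For each of these genes the difference between genotypes was under 2 of its SE.

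Of 1145 repeat subfamilies edgeR also called 0 (0%) for a difference between genotypes, with 49 (4.28%) at an unadjusted p under 0.05 and a smallest adjusted p of 0.0913, and DESeq2 called 0, with 28. L1Md_T had a mean ratio of -1.59 ± 0.30 (SD, n = 3) in Mael+/- testes and differed by -0.24 (SE 0.25, edgeR adjusted p 0.996). L1Md_A was at -1.43 ± 0.32 in Mael+/- and differed by -0.62 (SE 0.25, adjusted p 0.738), and IAPEz-int at -0.95 ± 0.29 and by -0.59 (SE 0.25). Both lay lower in Mael-/-, without passing the adjusted threshold. L1_Mm lay the other way, at -2.02 ± 0.19 in Mael+/- and higher by 0.52 (SE 0.27) in Mael-/-. Few copies of L1_Mm held much of its signal in Mael-/-, with 54.3% of RNA and 52.0% of footprints in the 10 leading copies of each assay. A single copy held 702 of its 1784 RNA counts and had 0 footprint counts. The L1Md_T level itself was 434 ± 113 RNA and 213 ± 49.1 footprint CPM in Mael-/- against 69.2 ± 14.9 and 40.0 ± 3.31 in Mael+/-. Both assays thus stood several times higher while the ratio moved by less than its SE.

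**Figure D5:**
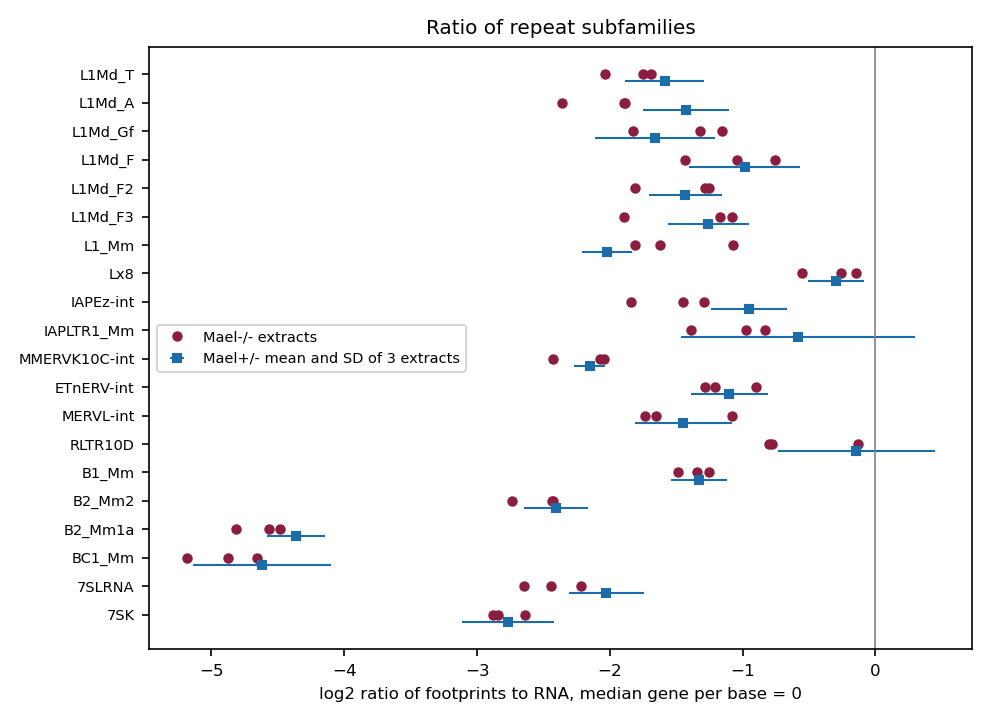
Log2 ratio of footprints to RNA of 20 repeat subfamilies (horizontal axis, median gene per base at 0) in the 3 Mael-/- extracts (red points) and as mean and SD of 3 Mael+/- extracts (blue). L1Md_A and IAPEz-int lie lower in Mael-/-, L1Md_T and MMERVK10C-int overlap, and B2_Mm1a and BC1_Mm are lowest in both genotypes.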

How the data were processed

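RNA and ribosome footprints were sequenced from testis extracts of 4 groups of 3 libraries. For the deposited counts, the authors clipped linkers and 5-base identifiers, removed ribosomal DNA reads with Bowtie 1.2.2, aligned to mm10 with STAR 2.6.0c and counted with featureCounts (Subread 1.6.4), RNA over mRNAs and footprints of 28 to 34 nucleotides over coding sequence. No collapsing of duplicates is stated, so intervals cover the spread of deposited counts. The authors' tables of DESeq2 1.24.0 fold changes, p-values and adjusted p-values between genotypes were not used.

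Counts of genes, and of repeat copies summed by subfamily, were fitted with edgeR 4.0.16 in R 4.3.3 with its default filter, TMM factors within each assay, offsets for coding and mRNA length and the extract as a block. Lengths came from the RefSeq mRNA with the longest coding sequence in GRCm38, and 20409 of 20620 genes had them. Ratios were centred on the median gene, whose uncentred log2 ratio was 0.81. Ratios of single extracts used a pseudocount of 0.5 counts. RNA and footprint libraries of an extract were treated as pairs because they are aliquots of 1 extract. Their deviations from the group correlated at 0.269, 0.311 and 0.313 over 10095 genes, against -0.184 to -0.117 for other numbers. Replicates are separate samples per the labels. Where nothing says they came from separate animals, p-values measure the spread between these samples, which may be technical.

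The libraries, gene lists and naming rule were chosen with earlier results of these data known. Named were the 10 called genes each way with the largest ratios among those with at least 100 RNA and 20 footprint counts on average, the extremes of each list, fixed genes and fixed repeats, and the 5 called subfamilies each way. Some genes named by the rule are not reported here, and G3bp2 and Ifrd1 were chosen after their values were seen. On simulated data with 200 changed genes, the ratio test recovered 97.9% of genes changed by 1.5 and 100% of those changed by 2 (log2). Of its calls 1.49% were false. The interaction test recovered 99.1% and 100%, with 3.87% false. Every other simulated gene had the ratio of the median gene, and all genes shared the same dispersion. Real ratios had an SD of 0.79 across uniquely mappable genes, so the false share of the ratio test does not cover genes near the 2-fold line. Changes under 1.5 were not simulated. Alternatives were DESeq2 1.42.0, other size factors, filters, lengths, centring, fold rules, no block and leaving out each extract.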

Additional observations from a re-analysis of the deposited data

How the results depend on the processing

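Calls of genes (2732; 1725 higher, 1007 lower) rested most on length, centring and fold rule. Without lengths 1132 were higher and 1540 lower. With TMM over 6 libraries and no centring 6530 were called (6232 higher, 298 lower; 95.4% higher against 63.1%). By glmTreat, which tests against a 2-fold ratio, 1801 were called (610 lower), and by adjusted p alone 9941 (5073 and 4868). With uniquely mappable genes alone 1781 were called (444 lower), and with uniquely mappable lengths 639 were lower. These 2 settings, and repeats centred without lengths, were chosen after seeing the data.

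For repeats (352; 145 higher, 207 lower), 318 were higher and 47 lower without centring, 317 and 47 when centred on genes without the length term, 224 were called by glmTreat (107 lower) and 598 by adjusted p alone (422 lower).

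Without the replicate block, 2755 genes (1739 higher, 1016 lower) and 348 repeats (144 and 204) were called, the interaction called 0 of each, and no named gene or repeat changed its call. Leaving out each extract gave 2742 to 2883 genes and 326 to 378 repeats. In the interaction of repeats, leaving out each extract gave 0 to 5 calls and no low-count filter gave 4. Without Mael-/- extract 2 there were 0, without extract 1 the call was IAPLTR2a2_Mm, and without extract 3 the calls were HY1, RLTR24 and U5. Without Mael+/- extracts 1, 2 and 3 there were 2, 3 and 5. Of the calls described, the sign turned for Star without lengths (-0.15) and for Ybx1 with uniquely mappable lengths (0.053), while genes near 0 that were not called, such as Atf5 and Ppp1r15b (-0.46), also changed sign without lengths. Under DESeq2 and median-of-ratios size factors, all 110 named values kept their call or stayed uncalled. Without lengths 65 of 82 named genes did, including uncalled ones whose sign changed, and 16 lost the call. The causes were not tested. Depth limits low genes: 3 counts are 0.109 to 0.357 CPM in these libraries.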

Other observations

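A few genes lay outside the range of the named ones, and those given here were chosen after their values were seen. Ankrd60, an ankyrin repeat protein, had a mean of 1.33 RNA counts and 8803 footprint counts per Mael-/- library. Tgoln1, a protein of the trans-Golgi network, had a mean of 1843 RNA counts and 0 footprint counts. In all, 6 genes averaged 100 RNA counts or more per library and had 0 footprints, of which 3 had under 10% of their coding words at a single place, while Tgoln1 had 100%. Both genes also stood far from the median gene in Mael+/- testes, with mean ratios of 11.48 and -9.32. The part of gene models or of counting in these values was not tested.

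Sertoli cell markers, 15 genes in all, took 0.844 to 0.899% of gene RNA counts and 1.27 to 1.37% of gene footprint counts in the Mael-/- extracts. Clu held most of the counts in both assays, with 115593, 75214 and 67934 footprint counts. Its ratio was 0.36 (SE 0.09), which is not a call. Trf, transferrin, was the lowest member by ratio at -0.37 and Sox9 the highest at 3.22.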
